A study of Mus musculus with 6 samples.

Results

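The unstimulated macrophage line RAW264.7 was compared with the unstimulated fibroblast lines NIH3T3 and L929. In the study, 6 Affymetrix whole-transcript arrays were hybridised with total RNA of these mouse lines, 1 array for each line without stimulus and 1 after 4 h of interferon-β (IFN-β). This comparison used the 3 unstimulated arrays. The labels call RAW264.7 a macrophage cell line and give NIH3T3 and L929 by their line names, so fibroblast is background knowledge of both lines. They give no genotype, passage or culture state, and each group is 1 array of 1 established line. A gene was counted as different when its log2 level in RAW264.7 lay above both fibroblast arrays, or below both, by a margin of 2 or more (4-fold). That distance, the level in RAW264.7 minus the nearer fibroblast level, is called the gap here, and it was set to 0 where RAW264.7 lay between the fibroblast arrays. Of 19938 genes, each read by 1 probe set, 360 (1.81%) were higher in RAW264.7 and 305 (1.53%) were lower, 665 in all.

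Macrophages are phagocytes of the myeloid lineage. They depend on the transcription factor PU.1 and on signalling from the colony-stimulating factor 1 receptor, sense microbes through Toll-like and C-type lectin receptors, engulf particles through receptors that signal over ITAM adaptors, and kill what they take up with an oxidase and lysosomal proteases. Fibroblasts are mesenchymal cells that secrete and crosslink collagen and other matrix, adhere through focal adhesions and contractile fibres, and supply growth factors and chemokines to neighbouring cells. RAW264.7 was derived from a mouse tumour induced by a leukaemia virus, L929 is a subclone of the L strain of connective tissue cells, and NIH3T3 is an immortal line from mouse embryos.

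The genes higher in RAW264.7 had a median gap of 3.06 (8.34-fold), 183 of them (0.918% of all genes) reached 3 and 61 reached 5. Among the genes lower in RAW264.7 the median size was 2.90 (7.45-fold), with 138 (0.692% of all genes) at 3 or more and 36 at 5 or more. In 271 of the 360 genes higher in RAW264.7, both fibroblast levels lay below the median level of their array, and in 238 of the 305 lower genes the RAW264.7 level lay below its array's median. The gene medians of the arrays were 5.10 in RAW264.7 against 5.22 in NIH3T3 and 5.20 in L929. Most of these differences were thus between a clear signal and one in the lower part of the array's range, for which no detection call was used here. The size and rank of such gaps, and their folds, depend on where each array's signal bottoms out. In bulk cultures, fewer expressing cells and less RNA per cell cannot be told apart.

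No line had a replicate array. The closest available measure of array-to-array spread was the distance between the stimulated and the unstimulated array of a line, which also holds the IFN-β response. Its median over genes was 0.153 in RAW264.7 against 0.266 in NIH3T3 and 0.220 in L929, and its 95th percentile was 0.546, 0.803 and 0.754. These lie below the margin of 2, but the genes called are a smaller share than lies beyond that percentile. The distance was 2 or more for 85 genes of RAW264.7 (0.426%), 76 of NIH3T3 (0.381%) and 137 of L929 (0.687%). Between lines, the median distance from RAW264.7 was 0.283 to NIH3T3 and 0.278 to L929, close to the median within NIH3T3. The fibroblast lines differed from each other by 2 or more in 657 genes (3.3%). Their median distance was 0.33 over the higher genes and 0.67 over the lower genes, against 0.27 over all genes. They lay within 1 of each other for 309 of the 360 higher and 211 of the 305 lower genes. limma, with RAW264.7 against the mean of the fibroblast lines and 1 residual degree of freedom, called 0 genes in either direction at an adjusted p under 0.05 (lowest adjusted p 0.108, Benjamini-Hochberg over all genes). At an unadjusted p under 0.05 it gave 1103 higher and 815 lower. A fit of all 6 arrays, added after the data were seen, gave each line a level and kept the condition as a block, with 2 residual degrees of freedom. It called 2601 genes higher (13%) and 2457 lower (12.3%) at an adjusted p under 0.05, among them 355 of the 360 higher and 305 of the 305 lower genes. That fit includes the 3 arrays on which the genes were called, so the overlap is no separate check of them. Its error is the distance between the arrays of a line that remains after a shift by IFN-β shared by all lines. That error holds differences between the lines in their IFN-β response, and no replicate array enters it. The fit treats the fibroblast lines as fixed. It thus compares these lines and not macrophages with fibroblasts. In an exact permutation of 1 array against 2 the smallest one-sided p is 0.333, so no single gene can pass a test of this kind.

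The arrays after IFN-β are the only other arrays of these lines. The margin was not applied to them when the genes were called, but they entered the authors' RMA and the choice of probe set for genes with several, so they are not fully independent. On them, 282 of the 360 higher genes (78.3%) and 247 of the 305 lower genes (81%) were past the margin in the same direction, where 1.65% and 1.41% of all genes were past it. The gap kept its sign in 352 of the 360 higher genes, lay at 0 in 7 and had the opposite sign in 1. All 305 lower genes kept their sign. Of the genes at 3 or more, 170 of 183 higher and 135 of 138 lower ones were past the margin again. The labels do not say whether the arrays of a line came from separate cultures.

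**Figure D1:**
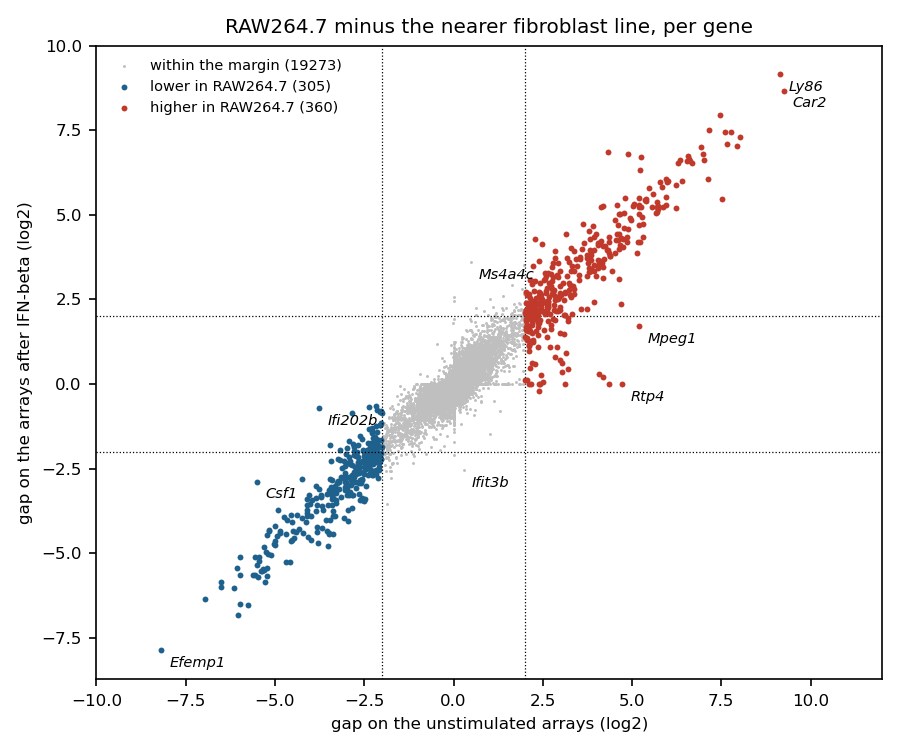
Gap between RAW264.7 and the nearer fibroblast line for each gene (log2), on the unstimulated arrays (x axis) and on the arrays after IFN-β (y axis); named points are genes given in the text. Most genes past the margin of 2 unstimulated lie past it again after IFN-β (282 of 360 higher and 247 of 305 lower), with Rtp4 among those that lost the gap.

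Markers of the cell types were read first. Their lists were chosen with earlier results of these data known and hold the 7 genes proposed for this comparison. They are therefore no independent check of the labels. Of 20 macrophage markers measured, 17 (85%) were higher in RAW264.7 and 0 lower, with a median gap of 5.67 against 0.00 over all genes. Of 19 fibroblast markers, 12 (63.2%) were lower in RAW264.7 and 0 higher, with a median gap of -2.95. The 7 genes proposed as markers for this comparison all passed the margin: the gap was 6.99 for lysozyme Lyz2, 7.01 for the adaptor Tyrobp, 6.53 for the Fc receptor γ chain Fcer1g and 5.03 for the lysosomal glycoprotein Cd68, and -5.16 for Col1a1, -5.98 for Col1a2 and -6.14 for the matrix glycoprotein Sparc. The largest macrophage marker gap was that of Ly86, which encodes MD-1, the partner of the receptor CD180: its level was 12.70 in RAW264.7 against 3.56 in NIH3T3 and 3.42 in L929. Adgre1, which encodes F4/80, read 7.37 in RAW264.7 against 3.02 in NIH3T3 and 3.14 in L929. The macrophage markers within the margin were Aif1 (gap 1.70), Clec4a2 (1.22) and Ms4a7 (-0.15).

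Of the fibroblast markers within the margin, Dcn and Thy1 divided the fibroblast lines. Decorin (Dcn) read 10.82 in NIH3T3 but 3.41 in L929 and 3.47 in RAW264.7. Thy1 read 10.45, 4.96 and 5.11 in the same order. For these markers L929 lay close to RAW264.7, and NIH3T3 stood above both. The levels of Lum, Fap and Postn gave no gap past the margin either, and vimentin (Vim), an intermediate filament of mesenchymal cells and macrophages alike, had a gap of -1.84. S100a4, also named fibroblast-specific protein, had a gap of -0.96 with a level of 9.61 in RAW264.7. None of the measured epithelial (10), lymphocyte (11), granulocyte and mast cell (12), dendritic cell (10) or endothelial (8) markers passed the margin in either direction. Across the 12 housekeeping genes none passed it, and the gap ran from -0.32 for Actb to 0.82 for Hprt.

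**Figure D2:**
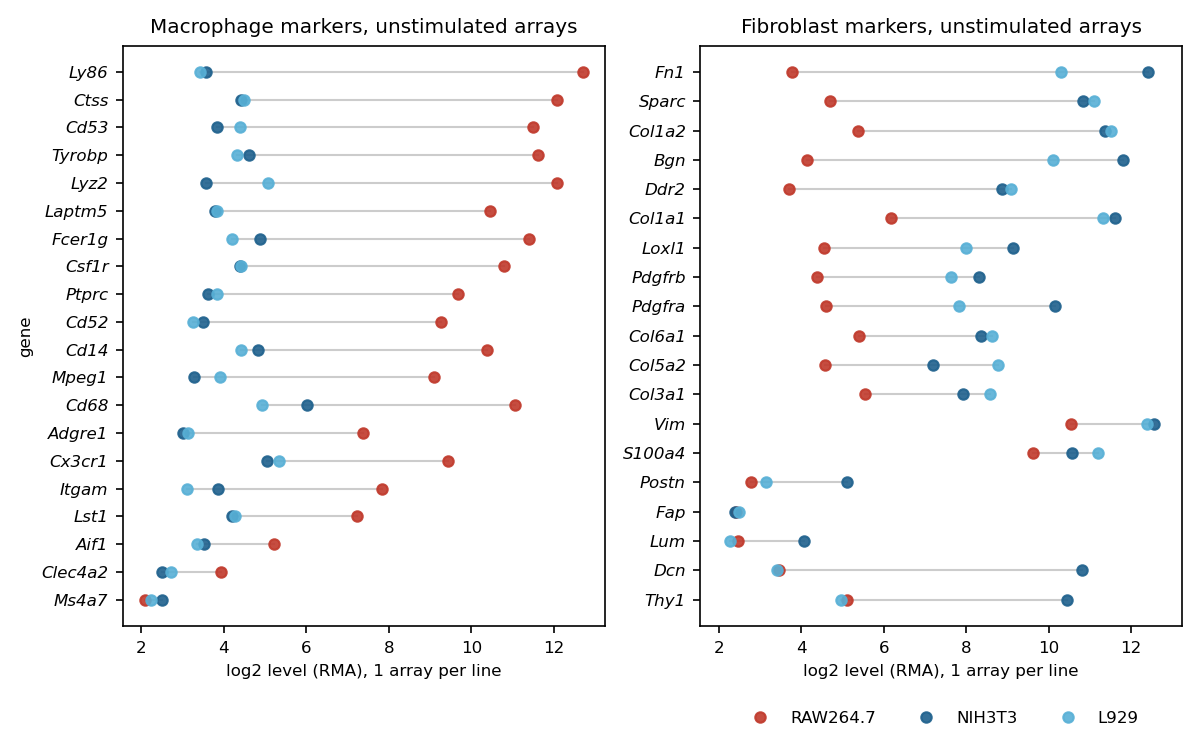
Log2 RMA level of each macrophage and fibroblast marker on the 3 unstimulated arrays, 1 point per line. For most macrophage markers RAW264.7 lies far to the right of both fibroblast lines, as for Ly86 (12.70 against 3.56 and 3.42), whereas for Dcn and Thy1 only NIH3T3 stands apart.

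In all, 39 gene lists with 716 measured entries (664 genes, since lists overlap) were compared, and 182 of those genes passed the margin. The plot of gene lists gives the share of each list past the margin, beside 1.81% and 1.53% of all genes. Where a list's median gap is not given, it lay between -0.50 and 0.20.

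**Figure D3:**
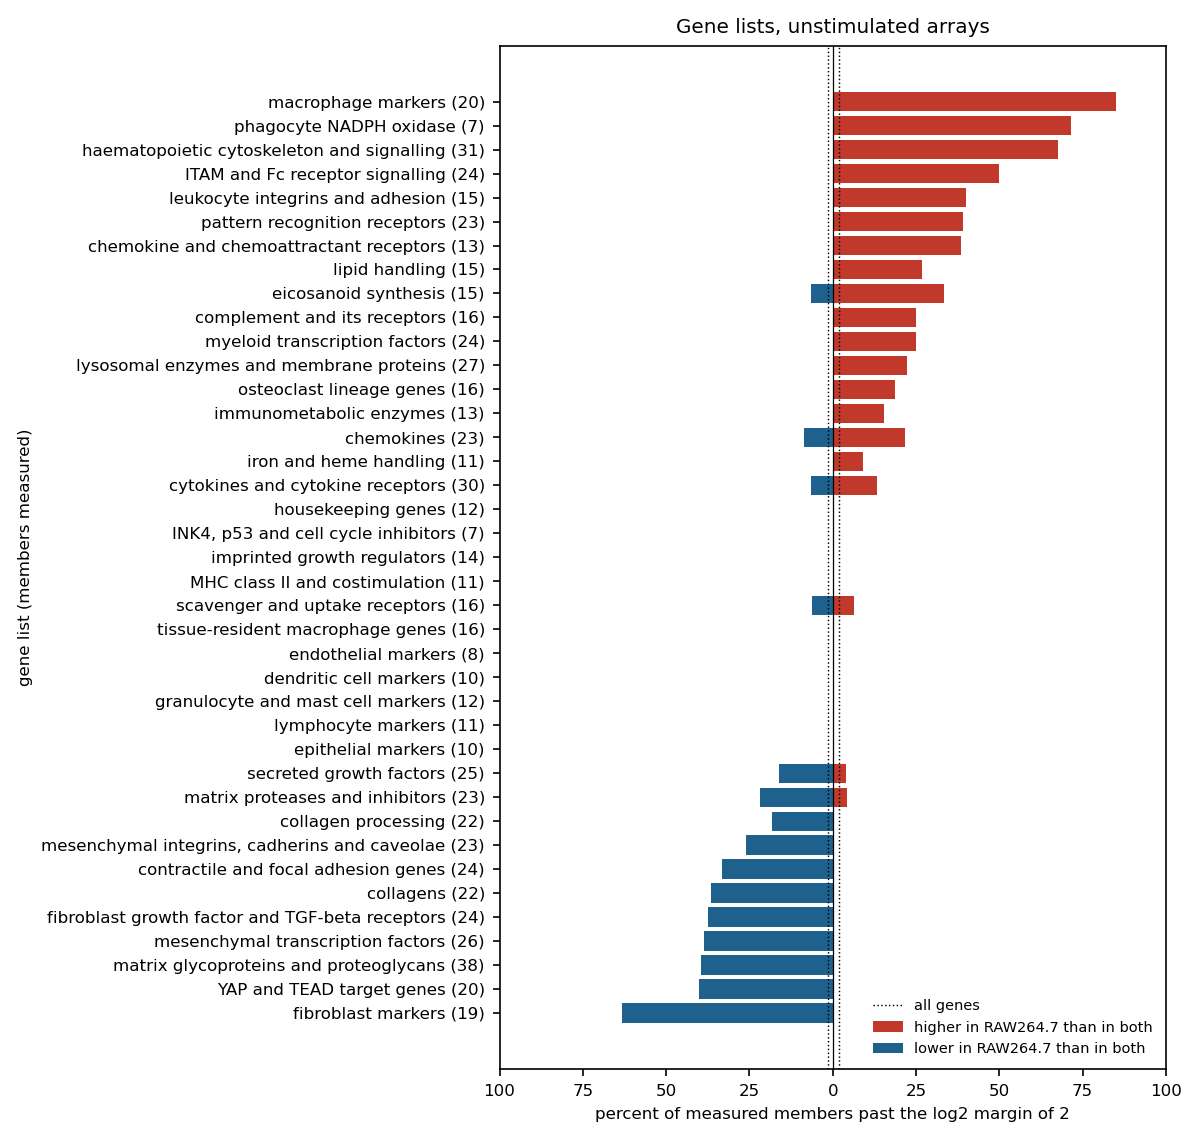
Percent of the measured members of each gene list that were higher or lower in RAW264.7 than in both fibroblast lines by 2 or more (log2), unstimulated arrays, with the number measured after the list's name. The macrophage markers reach 85% higher and the fibroblast markers 63.2% lower, while the housekeeping genes and the markers of other cell types are at 0.

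Transcription factors of the myeloid lineage were higher for 6 of 24 members (25%), with a median gap of 0.42. Spi1, which encodes PU.1, read 9.67 in RAW264.7 against 3.70 in NIH3T3 and 4.08 in L929, a gap of 5.59. The lymphoid and myeloid zinc finger factor Ikzf1 had a gap of 4.13, the ETS factor Fli1 4.06, the interferon regulatory factors Irf5 3.12 and Irf8 2.85, and Lyl1 2.42. The others lay within the margin. Runx1 (7.57 in RAW264.7 against 7.0 in NIH3T3 and 6.80 in L929) and Cebpb (7.38, 8.29 and 8.16) are known as factors of macrophages and were read at similar levels in all 3 lines. Cebpa had a gap of 0.46 and Maf of -0.18. The mesenchymal factors were lower for 10 of 26 members (38.5%), with a median gap of -0.90. The nuclear factor Nfib read 2.93 in RAW264.7 against 9.80 in NIH3T3 and 8.99 in L929 (gap -6.06), and its other probe set gave -6.86. Tead1, the DNA-binding partner of the coactivators YAP and TAZ, had a gap of -4.70 (-4.61 on its other probe set), and the coactivator genes themselves, Yap1 and Wwtr1, had gaps of -2.47 and -3.02. Prrx1 (4.30 in RAW264.7 against 11.63 in NIH3T3 and 7.67 in L929) and Twist2 (4.57, 9.37 and 7.88) were lower in RAW264.7 with L929 between. Twist1 and Zeb1 separated the fibroblast lines instead: Twist1 read 9.0 in NIH3T3 against 4.99 in L929 and 4.90 in RAW264.7, and Zeb1 8.81, 4.17 and 4.16.

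Promoters of the genes past the margin were searched for the letters that factors of these groups are known to bind, on both strands of a window from 250 bases before to 50 bases after the annotated start (RefSeq, mouse build GRCm38.p6). Such a window was matched by gene ID for 15563 of the 19938 genes, for 275 of the 360 higher and for 232 of the 305 lower ones. GAGGAAGT, the core that PU.1 prefers among ETS factors, was present in 29 of the 275 promoters of higher genes (10.5%), in 2 of the 232 of lower genes (0.862%) and in 2.74% of all. With every listed promoter of a gene counted, the shares were 10.9%, 2.16% and 3.24%. Among genes higher by 3 or more the share was 12.6%. The composite site of ETS and IRF factors (GGAA and GAAA, 2 bases apart) shares its GGAA with the first motif. It was present in 5.45% of higher, 3.45% of lower and 2.6% of all promoters. Among genes higher by 3 or more its share was 3.7%, near the 3.64% of genes lower by 3 or more. GGAATG, bound by TEAD factors, was present in 9.82% of higher, 20.7% of lower and 13.1% of all promoters, and in 14.5%, 22.4% and 15.1% with every listed promoter, so that the higher genes then lay near the share of all genes. The AP-1 site TGACTCA was found in 4%, 6.9% and 4.52% (6.18%, 9.48% and 5.39% with every listed promoter, which turns the side of the higher genes), and CCAAT, the box of NF-Y, in 29.1%, 33.2% and 38.3% (34.9%, 37.5% and 41.7%). A match is a run of letters in the reference sequence, not a measured binding site.

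Of the promoters with a match before the start, 6 are shown, those of the list members with the largest gaps in each direction. Members on a single chromosome were passed over in this choice. The 250 bases before the start are given 5′ to 3′ on the gene's strand, with the match in capitals. Hpgds (chr6:65144731-65144980, minus strand), Ctsc (chr7:88277835-88278084, plus strand) and Vav1 (chr17:57278850-57279099, plus strand) were higher in RAW264.7 and hold GAGGAAGT, in Ctsc on the opposite strand as ACTTCCTC. Timp1 (chrX:20869916-20870165, plus strand), Ankrd1 (chr19:36119845-36120094, minus strand) and Cald1 (chr6:34598254-34598503, plus strand) were lower and hold GGAATG.
Hpgds: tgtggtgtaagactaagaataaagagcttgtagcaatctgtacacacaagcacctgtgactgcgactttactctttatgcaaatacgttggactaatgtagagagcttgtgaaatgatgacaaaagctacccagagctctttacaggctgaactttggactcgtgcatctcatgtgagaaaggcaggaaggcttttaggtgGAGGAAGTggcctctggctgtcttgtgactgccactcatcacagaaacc
Ctsc: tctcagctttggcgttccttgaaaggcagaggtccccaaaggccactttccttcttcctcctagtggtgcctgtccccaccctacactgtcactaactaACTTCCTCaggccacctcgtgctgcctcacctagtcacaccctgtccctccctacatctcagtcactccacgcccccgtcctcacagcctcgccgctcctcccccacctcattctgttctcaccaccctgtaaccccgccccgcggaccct
Vav1: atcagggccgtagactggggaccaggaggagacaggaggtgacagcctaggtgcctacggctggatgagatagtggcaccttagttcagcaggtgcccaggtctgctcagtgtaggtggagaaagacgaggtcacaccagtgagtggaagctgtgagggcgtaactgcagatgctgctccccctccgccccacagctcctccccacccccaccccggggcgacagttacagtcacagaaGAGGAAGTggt
Timp1: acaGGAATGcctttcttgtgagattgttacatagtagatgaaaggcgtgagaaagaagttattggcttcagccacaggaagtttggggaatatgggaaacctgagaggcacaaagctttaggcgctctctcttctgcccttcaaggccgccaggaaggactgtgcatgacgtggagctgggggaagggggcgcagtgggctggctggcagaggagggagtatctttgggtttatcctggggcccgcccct
Ankrd1: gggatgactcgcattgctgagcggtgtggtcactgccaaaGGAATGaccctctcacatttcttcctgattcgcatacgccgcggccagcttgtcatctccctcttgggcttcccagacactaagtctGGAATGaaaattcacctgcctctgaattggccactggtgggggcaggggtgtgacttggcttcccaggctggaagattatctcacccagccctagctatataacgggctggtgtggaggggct
Cald1: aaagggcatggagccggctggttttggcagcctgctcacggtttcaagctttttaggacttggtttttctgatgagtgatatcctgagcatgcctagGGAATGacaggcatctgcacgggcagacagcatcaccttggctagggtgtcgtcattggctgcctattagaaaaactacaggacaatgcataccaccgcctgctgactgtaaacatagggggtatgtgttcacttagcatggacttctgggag
The match begins nearest to the start in Vav1, 11 bases before it, and lies 49 bases before it in Hpgds and 151 in Ctsc. Ankrd1 holds GGAATG at 2 places, the nearer 123 bases before the start.

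**Figure D4:**
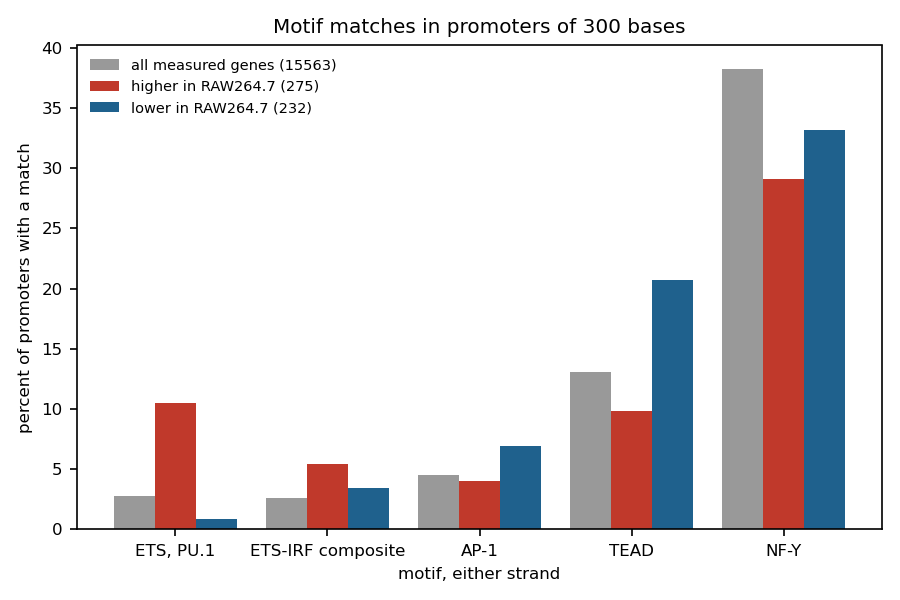
Percent of promoters with at least 1 match to each motif on either strand, for all measured genes with a promoter and for the genes higher or lower in RAW264.7. The PU.1 motif stands at 10.5% of higher, 0.862% of lower and 2.74% of all promoters, and the TEAD motif at 9.82%, 20.7% and 13.1%.

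In the ITAM pathway a phosphorylated adaptor recruits the kinase Syk. Genes of ITAM and Fc receptor signalling were higher for 12 of 24 members (50%) and lower for 0, with a median gap of 1.98. Genes at several steps of the pathway were past the margin, but 12 members lay within it. After IFN-β, 10 members were higher. The activating IgG receptor Fcgr1 read 8.66 in RAW264.7 against 3.77 in NIH3T3 and 3.60 in L929, and the inhibitory one, Fcgr2b, 6.63, 3.81 and 3.90. Syk itself had a gap of 2.14 (6.54 against 4.05 and 4.40), close to the margin. Downstream of it, the scaffold Lcp2 (5.48), the kinase Btk (4.95), the exchange factor Vav1 (4.61) and the phospholipase Plcg2 (3.85) were higher, and so were the phosphatases Inpp5d (4.51) and Ptpn6 (4.06), which oppose the signal. Trem2, a lipid receptor that signals through Tyrobp, had a gap of 2.30, and Trem1 read 3.83 in RAW264.7 against 3.14 and 3.42. Fcgr3 (gap 1.18) and Fcgr4 (0.00) stayed within the margin.

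Pattern recognition receptors were higher for 9 of 23 members (39.1%) and lower for 0, with a median gap of 1.15. The C-type lectin Clec5a read 10.93 in RAW264.7 against 2.98 in NIH3T3 and 2.96 in L929, a gap of 7.95. Tlr7, which senses single-stranded RNA in endosomes, read 9.16, 2.58 and 2.38. The lectins Clec4e (6.35) and Clec4d (5.70), Cd180 (5.96), the LPS co-receptor Cd14 (5.55), Tlr13 (5.15), a sensor of bacterial ribosomal RNA, the inflammasome sensor Nlrp3 (3.62) and Tlr2 (2.72) were also past the margin. Tlr4, the LPS receptor, was not: it read 7.91 in RAW264.7 against 7.73 in NIH3T3 and 7.56 in L929, so that the lines differed by less than the 95th percentile of the spread within a line. The gap was 1.05 for its partner Ly96 and 1.20 for the adaptor Myd88. The LPS receptor complex thus differed mainly by Cd14 on these arrays.

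The phagocyte NADPH oxidase, which makes superoxide at the phagosome, was higher for 5 of 7 members (71.4%), with a median gap of 3.82. Its catalytic subunit Cybb read 11.35 in RAW264.7 against 3.88 in NIH3T3 and 3.37 in L929. The cytosolic subunits Ncf1 (5.40) and Ncf4 (3.82), the GTPase Rac2 (4.62) and the membrane subunit Cyba (2.71) followed. Rac1, the broadly expressed GTPase of the same family, read 10.76, 11.05 and 10.79, and the proton channel Hvcn1 4.07, 3.62 and 3.86.

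Lysosomal genes were higher for 6 of 27 members (22.2%) and lower for 0, with a median gap of 0.59. Most members past the margin are known best from leukocytes. Cathepsin S (Ctss) read 12.07 in RAW264.7 against 4.41 in NIH3T3 and 4.48 in L929. Cathepsin C (Ctsc), which activates serine proteases of granules, read 8.48, 3.24 and 2.91, and cathepsin E (Ctse) 7.06, 3.70 and 3.83. Lysosomal acid lipase (Lipa) had a gap of 2.11 over fibroblast levels of 7.82 and 8.92. The general enzymes and membrane proteins did not pass: the gap was 0.05 for Ctsd, 0.59 for Ctsb, -0.06 for Lamp1 and 0.10 for Lamp2. Cathepsin K (Ctsk) and Gpnmb read highest in L929, at 8.69 and 10.24, against 4.32 and 9.03 in RAW264.7.

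Uptake receptors split. The class A scavenger receptor Msr1 read 6.71 in RAW264.7 against 2.93 in NIH3T3 and 3.11 in L929, the only member of 16 higher in RAW264.7. Axl, a receptor for apoptotic cells, read 5.04, 10.88 and 7.88 and was the only lower one, and its gap was -0.85 after IFN-β. Its relatives Mertk (-1.25) and Tyro3 (-1.15) lay below both fibroblast arrays within the margin. Cd36 was read at 8.43 in L929, 4.59 in RAW264.7 and 3.39 in NIH3T3. Mrc1, Marco, Cd163 and Timd4, markers of macrophages in tissues, had gaps of 0.00 to 0.21. None of the 16 tissue-resident macrophage genes passed the margin. Their levels in RAW264.7 ran from 2.62 (Chil3) to 5.03 (Tmem119), and P2ry12 of microglia, at 4.87 against 3.47 and 3.11, had the largest gap, 1.40. The MHC class II and costimulation list also had 0 of 11 members past the margin. The invariant chain Cd74 read 8.30, 4.29 and 6.79, whereas H2-Aa, H2-Ab1 and H2-Eb1, which encode class II chains, and the transactivator Ciita had gaps of 0.00 to 0.02.

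Among complement genes 4 of 16 (25%) were higher: the anaphylatoxin receptors C3ar1 (8.54 in RAW264.7 against 3.67 in NIH3T3 and 3.73 in L929) and C5ar1 (6.20, 3.82 and 3.36), the integrin chain Itgam (7.84, 3.86 and 3.11) and properdin (Cfp; 7.79, 5.51 and 5.59). The C1q chains, made by many tissue macrophages, read 3.40 to 4.20 in RAW264.7 with gaps of 0.00 to -0.15. Receptors for chemokines and other attractants were higher for 5 of 13 members (38.5%; median gap 1.01), led by Gpr84, a receptor for medium-chain fatty acids (9.63, 3.34 and 3.41), with Cx3cr1 (4.10) and the nucleotide receptor P2ry6 (3.79). The chemokine receptors Ccr1, Ccr2 and Cxcr4 had gaps of -0.11, 0.02 and 0.36.

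Chemokines fell on both sides, with 5 of 23 higher (21.7%) and 2 lower (8.7%). Ccl3, an inflammatory chemokine, read 10.91 in RAW264.7 against 3.14 in NIH3T3 and 3.06 in L929. Ccl4 (3.90), Cxcl16 (3.18), Cxcl14 (2.19) and Cxcl2 (2.11) were also higher. Ccl2, the ligand of CCR2, read 4.41, 8.81 and 9.90, and the related Ccl7 4.35, 7.83 and 9.63. Both were thus lower in the macrophage line. Cytokines and their receptors had 4 of 30 members higher and 2 lower. Tnf read 9.87 in RAW264.7 against 4.94 in NIH3T3 and 5.10 in L929, and Il10ra and Il18 had gaps of 2.27 and 2.12. Il1b (0.78), Il6 (-0.37) and Il10 (0.00) were within the margin.

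The CSF1 axis was divided between the lines. Csf1r, the receptor that sustains macrophages, read 10.80 in RAW264.7 against 4.40 in NIH3T3 and 4.41 in L929, a gap of 6.40. Its ligand Csf1 read 3.52, 9.02 and 10.37 in RAW264.7, NIH3T3 and L929. L929, whose conditioned medium is in common use as a source of this factor, had the higher of the fibroblast levels. After IFN-β, Csf1 was read at 6.62 in RAW264.7 against 9.51 in NIH3T3 and 10.79 in L929, so that the gap was -2.89. Of 18 ligand and receptor pairs, chosen after their values were seen, the only other one with opposite calls was Pdgfb and Pdgfrb: the ligand read 7.15 in RAW264.7 against 5.04 in NIH3T3 and 4.97 in L929, and the receptor 4.37, 8.30 and 7.64. Osmr, the oncostatin M receptor, was lower in RAW264.7 (3.33, 8.57 and 9.34), while its ligand Osm had a gap of 0.82. Tgfb1 and Igf1 had gaps of 1.94 and 1.92, just short of the margin. Igf1r was lower, with a gap of -3.04. Across the 18 pairs, 3 ligands were higher and 3 lower, and 2 receptors were higher and 5 lower.

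Leukocyte adhesion genes were higher for 6 of 15 members (40%), with a median gap of 1.97. The integrin α4 chain Itga4 read 12.01 in RAW264.7 against 3.93 in NIH3T3 and 4.00 in L929, a gap of 8.02. The β2 chain Itgb2 had a gap of 4.32 and its α partner Itgam of 3.98, while Itgal (1.97) fell just short and Itgax (0.55) was low in all 3 lines. Genes of the haematopoietic cytoskeleton and its signalling were higher for 21 of 31 members (67.7%) and lower for 0, with a median gap of 2.64. The actin bundler Lcp1 read 11.19, 3.56 and 4.05, the tetraspanin Cd53 11.50, 3.83 and 4.39, and the phosphatase Ptprc, the common leukocyte antigen, 9.68, 3.62 and 3.83.

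Many of these genes have a paralog outside the blood lineages, and 18 such pairs were compared, chosen after their values were seen. The leukocyte form was higher in RAW264.7 for 16 of 18, with a median gap of 4.19. Of the 17 other forms measured, 0 were higher, 5 were lower and 11 lay within 1 of the fibroblast range, with a median gap of -0.26. In 4 pairs both forms passed the margin in opposite directions. Nckap1l, a subunit of the WAVE actin regulator in blood cells, read 9.61 in RAW264.7 against 3.99 in NIH3T3 and 4.57 in L929, and Nckap1, the subunit elsewhere, 4.61, 10.87 and 10.60. The integrin-linked adaptors followed this form, with Parvg at a gap of 5.19 and Parva at -5.28. Fermt3, the kindlin of leukocytes, had a gap of 2.64 and Fermt2 of -3.80. Hcls1, the cortactin of blood cells, had 2.03 and Cttn -3.39. Aif1l was lower as well (-2.09), while its leukocyte form Aif1 was within the margin (1.70). The other leukocyte form within the margin was Arhgdib, at 10.81 in RAW264.7 against 10.75 in NIH3T3 and 9.67 in L929 (gap 0.06). In the other pairs the broadly expressed form, where measured, did not pass the margin. For example, Dock2 (5.25) stood beside Dock1 (-0.15), Vav1 (4.61) beside Vav2 (-0.05), Pik3cg (5.66) beside Pik3ca (0.00), Ptpn6 (4.06) beside Ptpn11 (-0.26) and Rac2 (4.62) beside Rac1 (-0.03). Of the promoters matched, 3 of 15 leukocyte forms (Parvg, Vav1 and Pik3cg) and 0 of 13 other forms held GAGGAAGT, beside 2.74% of all promoters. Most leukocyte forms are among the higher genes whose share is given above, so this is no separate result. With 13 promoters, a count of 0 does not set the other forms apart from all genes.

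**Figure D5:**
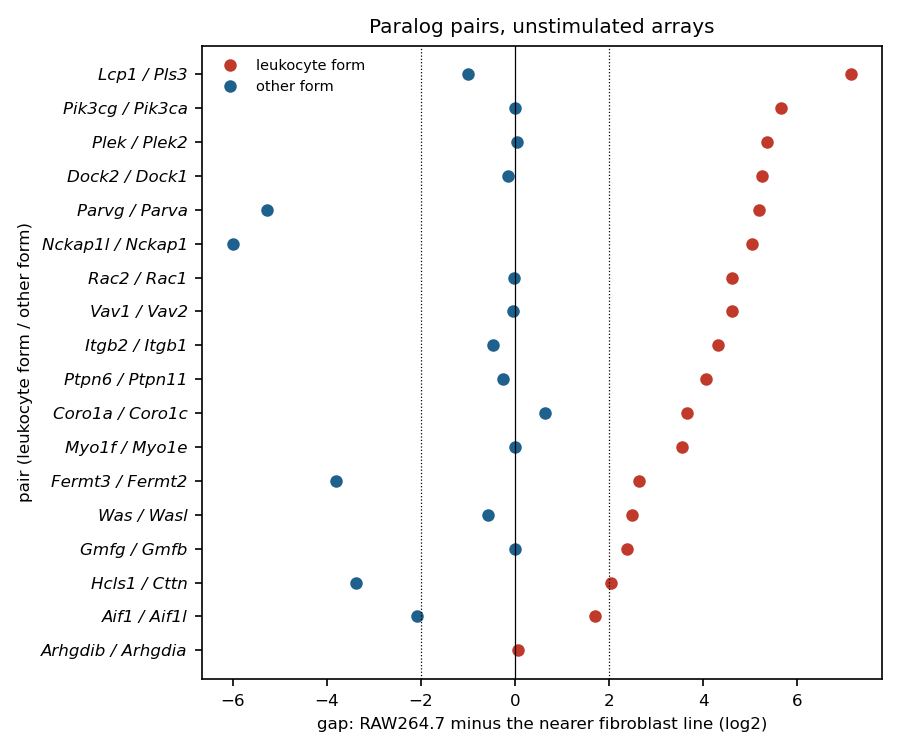
Gap between RAW264.7 and the nearer fibroblast line (log2, unstimulated arrays) for the leukocyte form and the other form of 18 paralog pairs, 1 point per gene. Leukocyte forms lie to the right of 0 for all pairs, though only by 0.06 for Arhgdib. For Nckap1, Parva, Fermt2, Cttn and Aif1l the other form lies past -2.

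Eicosanoid genes were higher for 5 of 15 members (33.3%) and lower for 1. The haematopoietic prostaglandin D synthase Hpgds read 9.18 in RAW264.7 against 3.46 in NIH3T3 and 3.86 in L929. The leukotriene branch was higher too, with 5-lipoxygenase (Alox5) at a gap of 3.13, its activating protein Alox5ap at 4.75 and the receptor Cysltr1 at 3.94. The prostaglandin E synthase Ptges was lower, at 4.09 against 7.61 and 7.17. The remaining higher member was Hpgd, with a gap of 4.38. Ptgs2, which encodes the inducible cyclooxygenase upstream of Hpgds and Ptges, lay between the fibroblast lines at 8.28. It read 10.97 in NIH3T3 and 4.94 in L929. In lipid handling, 4 of 15 members were higher: the RNA editing enzyme of apolipoprotein B, Apobec1 (3.04, and 0.62 after IFN-β), Lpcat2 (2.83), the cholesterol exporter Abcg1 (2.40) and Lipa. A different set stood out in L929, where Fabp4 read 9.75 against 3.72 in RAW264.7 and 3.96 in NIH3T3, and Pparg 8.48 against 4.11 and 4.06.

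The RAW264.7 line is in wide use as an osteoclast precursor, and 3 of 16 genes of that lineage were higher. Carbonic anhydrase 2 (Car2), which supplies protons for bone resorption, had a gap of 9.26, the highest computed here, against fibroblast levels near the bottom of the range: it read 11.97 in RAW264.7 against 2.71 in NIH3T3 and 2.55 in L929. Dcstamp, a fusion protein, had a gap of 3.73 and the RANK receptor Tnfrsf11a one of 2.26. The genes of mature osteoclasts Acp5, Ctsk, Calcr and Mmp9 had gaps of 0.00 to 0.05. Among 13 enzymes of immune metabolism, Acod1, which makes itaconate, read 8.71, 4.38 and 4.12 and Pfkfb3 had a gap of 2.32, while Nos2 (0.27) and Arg1 (0.04) were low in all 3 lines. Of 11 genes of iron handling, the exporter Slc40a1 was higher (7.19, 4.21 and 3.48). The other genes among the 20 largest gaps were the signalling adaptor Stap1 (7.66), the mast cell and myeloid receptor Milr1 (7.52), the NF-κB inhibitor Tnip3 (6.93), the inhibitory lectin Clec12a (6.68), the lysosomal protein Laptm5 (6.61) and the kinase Sgk3 (6.60).

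On the fibroblast side, 8 of 22 collagen chains (36.4%) were lower in RAW264.7 and 0 higher, with a median gap of -1.30. Next to the type I chains were the fibril-forming chains Col3a1 (5.54 in RAW264.7 against 7.92 in NIH3T3 and 8.57 in L929) and Col5a2 (4.58, 7.20 and 8.76). The type VI chains Col6a1, Col6a2 and Col6a3 had gaps of -2.95, -2.91 and -3.81, and Col8a1 of -3.67. The basement membrane chains Col4a1 (-1.75) and Col4a2 (-1.80) lay within the margin. Of 22 genes of collagen processing (median gap -1.11) 4 were lower: the enhancer of procollagen cleavage Pcolce (4.75, 10.30 and 10.66), the collagen chaperone Serpinh1 (4.42, 7.88 and 9.45), and the crosslinking oxidases Loxl1 (-3.45) and Loxl3 (-2.05). The oxidase Lox was NIH3T3's alone, at 11.36 against 3.25 in L929 and 3.04 in RAW264.7. The hydroxylase genes P4ha1 and P4hb, which other secretory cells need too, had gaps of 0.15 and -0.30.

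Matrix glycoproteins and proteoglycans were lower for 15 of 38 members (39.5%) and higher for 0, with a median gap of -1.21. Efemp1, which encodes fibulin-3, had a gap of -8.19, the lowest computed here, with a level of 3.41, low in the range, in RAW264.7 against 11.80 in NIH3T3 and 11.59 in L929. It was not on a list. Fibronectin (Fn1) read 3.78, 12.40 and 10.29, biglycan (Bgn) 4.14, 11.79 and 10.11, and syndecan 2 (Sdc2) 2.80, 9.66 and 8.31. The TGF-β binding protein Ltbp1 (-4.55), versican (Vcan, -4.47), the laminin chain Lamb1 (-4.13) and Fbln2 (-4.66) followed. In NIH3T3, 9 members stood above both other lines by 2 or more, and for Thbs1, Nid1, Dcn, Has2 and Tnc among them the gap was -0.22 to 0.00. Over all genes, 292 stood in NIH3T3 above both other lines by 2 or more and 120 in L929.

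Proteases and inhibitors of the matrix were lower for 5 of 23 members and higher for 1. The inhibitors Timp1 (4.01 in RAW264.7 against 11.05 in NIH3T3 and 9.78 in L929) and Timp2 (4.32, 11.38 and 9.64) were lower, together with the membrane metalloproteinase Mmp14 (4.38, 9.35 and 9.29), which Timp2 is known to bind. The urokinase Plau was the higher member (9.49, 6.91 and 6.15), and its receptor Plaur had a gap of -0.54. Mmp12, the elastase of macrophages, read 3.87, 3.41 and 3.27.

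Genes of contractile fibres and focal adhesions were lower for 8 of 24 members (33.3%), with a median gap of -1.0. The calponin Cnn2 read 3.69 in RAW264.7 against 10.19 in NIH3T3 and 10.71 in L929, caldesmon (Cald1) 4.16, 9.57 and 9.17, and filamin C (Flnc) 4.89, 8.86 and 8.86. Tensin 1 (Tns1) had a gap of -4.10 on the probe set used, but its 6 probe sets ran from -4.10 to 0.00. Smooth muscle actin (Acta2) and transgelin (Tagln) were high only in NIH3T3, at 10.79 and 8.34. Ankrd1, a target of YAP and TEAD, read 4.05, 9.27 and 10.09 (gap -5.22). The YAP and TEAD target list was lower for 8 of 20 members (40%) with a median gap of -1.69: Ccn1 (-4.24), Crim1 (-3.02) and Amotl2 (-2.74) were lower, but Ccn2, at 5.28 in RAW264.7 against 8.58 in NIH3T3 and 5.50 in L929, was not. Caveolae, flask-shaped pits of the plasma membrane, were represented by Cav1 (4.00, 10.21 and 9.49), Cav2 (-2.33), Cavin1 (-4.85), Cavin3 (-2.74) and Ehd2 (-3.85), and with Vcam1 these were the 6 of 23 members lower in their list. The cadherins Cdh2 and Cdh11 and the antigen Cd34 were high in NIH3T3 alone. Of integrins broadly used by both kinds of cell, Itgb1 (-0.47), Itgav (-0.68) and Itga5 (-0.90) were within 1 of the fibroblast range.

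Growth factor receptors were lower for 9 of 24 members (37.5%) and higher for 0. The hepatocyte growth factor receptor Met read 3.14 in RAW264.7 against 9.99 in NIH3T3 and 8.52 in L929. The collagen receptor Ddr2 (-5.17), Fgfr1 (-4.24) and both PDGF receptors, Pdgfra (-3.22) and Pdgfrb (-3.27), were lower as well. The TGF-β receptors Tgfbr1 (1.14) and Tgfbr2 (0.25) were within the margin, and Tgfbr3 (-2.19) was lower. Of 25 secreted growth factors 4 were lower, among them Fgf7 (3.97, 10.89 and 9.43) and Vegfd (3.86, 9.89 and 8.55), and 1, Pdgfb, was higher. Hgf, the ligand of Met, was high in NIH3T3 alone (8.76, against 2.90 in L929 and 2.72 in RAW264.7). Neither the 7 measured inhibitors of the cell cycle and p53 regulators nor the 14 imprinted growth regulators had a member past the margin. Cdkn2a, which encodes INK4A and ARF, read 5.12 in RAW264.7, with 5.14 in NIH3T3 and 5.61 in L929. For 6 of the imprinted genes, Dlk1, Grb10, Ndn, Meg3, Peg3 and Igf2, NIH3T3 stood above both other lines by 2 or more, and the gap was -0.27 to 0.00. The other genes among the 20 largest negative gaps included the ubiquitin ligase Nedd4 (4.31, 11.71 and 11.26), the ribosomal protein paralog Rpl39l (3.35, 9.38 and 9.62), Armcx3 (-5.60, with -4.82 and -4.43 on its other probe sets), the peroxidase Gpx8 (-5.56), the glutathione transferase Gsta4 (-5.38) and Aebp1 (-5.44).

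Of the higher genes that lost the margin after IFN-β, the gap shrank most for Rtp4, Usp18, Sp100, Phf11d and Mpeg1, several of them known as interferon-induced genes. Usp18, a protease that removes ISG15 and dampens interferon signalling, read 8.37 in RAW264.7 against 3.83 in NIH3T3 and 4.03 in L929 unstimulated, and 11.36, 10.10 and 11.45 after IFN-β. Rtp4 read 9.71, 4.99 and 4.01 and then 11.03, 10.64 and 11.09. In both, the unstimulated arrays of the fibroblast lines were low, all 3 stimulated arrays were high, and the gap went from past 4 to 0.00. Mpeg1, which encodes the pore-forming perforin-2 and is on the macrophage list, had a gap of 5.20 and then 1.70, with L929 at 3.91 and then 8.09. On the lower side, Ifi202b had a gap of -3.77 and then -0.71, Ccnd2 -3.46 and then -1.80, Gas1 -2.35 and then -0.68, and Ephb4 -2.18 and then -0.65. After IFN-β, 46 other genes were higher in RAW264.7 past the margin and 34 lower. Ms4a4c (0.48 and then 3.59) and Nrros (1.96 and then 3.50) were among the former, and Gstm2 (-1.86 and then -3.54) and Clec2d (-1.12 and then -2.35) among the latter. These values compare lines within each condition, and the difference between conditions was not tested.

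MicroRNA genes were measured through probe sets on their transcripts, which do not read the mature microRNA. Of 296 such genes 2 were higher and 1 lower, beside 1.81% and 1.53% of all genes. Mir99a read 5.94 in RAW264.7 against 3.00 in NIH3T3 and 3.87 in L929, and Mirlet7c-1, its neighbour on chromosome 16, 5.08, 2.53 and 2.40. In RAW264.7, Mirlet7c-1 lay just below the array's gene median of 5.10. Their host transcript Mir99ahg has 4 probe sets, and its gap was 2.11 on the one used. Mir31, on chromosome 4, read 3.66, 6.19 and 5.68 and lay just inside the margin. Mir100hg, the host transcript of a relative of Mir99a, was lower (4.08, 6.67 and 6.28). After IFN-β only Mirlet7c-1 was past the margin, with 2.15. The mature 5p sequences from RefSeq (GRCm38.p6) follow, with the seed, bases 2 to 8, in capitals, and the 3 seeds differ.
miR-99a-5p: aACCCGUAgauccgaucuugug
let-7c-5p: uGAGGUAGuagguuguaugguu
miR-31-5p: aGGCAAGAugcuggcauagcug

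At the margin itself, the higher genes just inside were Arap3, Irgm1 and Abhd18, each with a gap of 2.01, and those just outside Csf2rb, Gcnt1 and Bank1, each at 2.0 after rounding. The lower genes just inside were Zfpm2 (-2.01), Mir31 (-2.02) and Morc4 (-2.02), and those just outside Fam160a1 (-2.0), Gm10561 (-1.99) and Nfic (-1.98).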

How the data were processed

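Total RNA of 6 samples was extracted with an RNeasy column and labelled for Affymetrix whole-transcript arrays, per the labels. The deposited values are log2 levels that the authors made with RMA, per the submitters' processing notes. They run from 0.877 to 14.7, and the log2 scale is read from that range. RMA fits all arrays together, so the 6 columns are not independent, and differences of dim probe sets can be compressed. The labels give no RMA version or settings.

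Of 35557 probe sets, 21789 had 1 gene in the platform annotation, 1621 had several and 12147 were not named there. Symbols were checked through Entrez IDs (91 had no match) and 0 changed. Where a gene had several probe sets (999 genes), its probe set of highest average level across all 6 arrays was taken. The gap at a margin of 2 was computed in Python 3.11.15, and limma 3.58.1 in R 4.3.3 was fitted with lmFit and eBayes, treating the fibroblast lines as replicates. In simulated data limma recovered 100% of changed genes at each log2 size (2, 4, 6 and 8; 50 genes each) when every gene had the same spread, with 11 false calls, and 0% when spreads were drawn from the fitted prior. Precision is limited by 1 array per line and condition.

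The members and gene lists were chosen with earlier results of these data known. Genes named were the 7 proposed markers, the 20 largest gaps in each direction and 3 genes on each side of the margin. From the lists came up to 4 members past the margin, up to 3 against the list's known side, and members of lists of up to 16 genes as needed. The 5 in each direction that lost the margin most after IFN-β were named too. Of the 5 in each direction that gained it most, only some are given. Other genes, the paralog and ligand pairs and the microRNA genes were named after their values were seen. Alternatives covered the margin, the scaling, the probe set, a filter on low levels, the reference line, the variance model and the arrays used. A fit of all 6 arrays with the condition as a block was added after the data were seen.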

Additional observations from a re-analysis of the deposited data

Results flagged for a closer look

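Ifit3b, a gene of an interferon-induced family, had gaps of opposite sign in the 2 conditions. Unstimulated, it read 2.75 in RAW264.7 against 2.47 in NIH3T3 and 2.29 in L929, a gap of 0.28 among low levels. After IFN-β it read 6.57, 9.11 and 9.68, a gap of -2.55. RAW264.7 was thus below both fibroblast arrays after the stimulus. The gap before it was close to the median distance between the arrays of NIH3T3 (0.266), so it does not settle a side. The difference was not tested, since each line has 1 array per condition, and members of this family can share probes.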

How the results depend on the processing

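The counts of 360 higher and 305 lower genes depend most on the margin: a margin of 1 gave 880 and 755, and a margin of 3 gave 183 and 138. Measured against the mean of the fibroblast arrays, 475 were higher and 532 lower. Leaving out 1 fibroblast array gave 513 to 521 higher and 526 to 724 lower genes, the highest count being lower genes without L929. Centring, quantile normalization, the mean or the widest probe set, the low-level filter and the arrays after IFN-β gave 328 to 366 higher and 281 to 308 lower genes. limma called 0 genes under each alternative on 3 arrays, those after IFN-β too (lowest adjusted p 0.0501), where an unadjusted p under 0.05 gave 884 higher and 666 lower. With all 6 arrays and the condition as a block, pairing the arrays of a condition, it called 2601 higher and 2457 lower. The error of that fit is what a shift by IFN-β shared by all lines leaves between the arrays of a line. Of 142 genes picked by the rules for naming, quantile normalization moved 7 across the margin, centring 4 and the mean over probe sets 1. None changed direction under these 3.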
